A study of Homo sapiens with 12 samples.

Results

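The interaction of genotype and hormone was measured in HaCaT, a line of human keratinocytes that grows without limit, as the difference of 2 responses. The response of a gene in 1 genotype is its log2 change from untreated cells to cells given 1,25(OH)2D3, the form of vitamin D that acts as a hormone, 8 h earlier. The difference of responses is the response in VDR KO cells minus that in wild type cells, so a negative value stands for a gene that went further up, or less far down, in wild type cells. All 12 libraries of total RNA entered it, 3 each of untreated wild type, treated wild type, untreated VDR KO and treated VDR KO cells, grown in 6-well plates. The labels state neither the dose, the vehicle, the edit made in VDR nor how many KO clones were used. Of the 16271 genes in the deposited count table, 14676 had enough reads to be tested, and the members described here are the 3857 genes called for the difference at an adjusted p below 0.05 (edgeR quasi-likelihood test, Benjamini-Hochberg adjustment).

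VDR is a nuclear receptor. With its partner RXR and the bound hormone it sits on vitamin D response elements and changes transcription of nearby genes, and the gene it raises most reliably in many cell types is CYP24A1, the enzyme that breaks the hormone down. In keratinocytes the hormone and its receptor are known for slowing growth, promoting differentiation and damping inflammatory signals. The contrast asks which genes answer the hormone differently in the genotypes. A gene with a response in wild type cells and none in KO cells has a difference equal to its wild type response with the sign turned.

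Library totals ran from 11.49 to 15.99 M counts (1e6 counts) over the 12 libraries. Untreated wild type replicate 3 stood apart from its group: it was at -32.5 on the first principal component, where the other libraries of the group were at -54.3 and -55.7, so results that move without it are given both ways. All 10 keratinocyte markers looked at, among them KRT5, KRT14 and TP63, were counted in every library. Of 31 markers of other cell types, 10 were in the table and the other 21 were not analysed here. The 10 summed to 37.5 to 46.5 CPM (counts per 1e6 counts of the library) in untreated wild type, 46.3 to 55.3 in treated wild type, 39.2 to 42.5 in untreated KO and 40.7 to 42.0 in treated KO libraries, and their part in the results was not tested. Fewer cells of a type and less RNA per cell cannot be told apart in such bulk libraries.

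VDR transcripts were counted in all libraries, also in those labelled VDR KO. The level was 103, 107 and 99.7 CPM in untreated and 74.6, 70.9 and 67.4 in treated wild type libraries. In KO libraries it was 73.1, 81.1 and 78.7 CPM untreated and 81.7, 80.5 and 86.3 treated. The wild type groups did not overlap and the KO groups did, and the difference of responses was 0.64 ± 0.10 (SE, n = 3 per group; adjusted p = 0.000371). RNA levels do not show whether a working receptor is made, so VDR reads alone do not check the genotype labels.

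CYP24A1 had the most negative difference of responses among genes with a mean of at least 5 CPM, at -5.60 ± 0.21 (adjusted p = 1.66e-09). It was at 51.3, 46.3 and 46.4 CPM in untreated wild type libraries and at 1705, 1718 and 1606 CPM in treated ones. In KO libraries it was at 21.0, 11.6 and 18.0 CPM untreated and at 12.1, 12.5 and 12 CPM treated. The 3 treated wild type libraries were far above the other 9, and the KO groups overlapped. The KO response was -0.47 ± 0.16 (adjusted p = 0.106) and was not called, which does not show that it was 0.

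INHBA and IL1B, a subunit of activin and an inflammatory cytokine, went the other way. INHBA was at 198, 200 and 238 CPM in untreated and 119, 125 and 118 in treated wild type libraries, and at 101, 92.2 and 99.5 CPM in untreated and 107, 116 and 104 in treated KO libraries. Its treated wild type libraries were thus all below its untreated ones and its treated KO libraries all above theirs, with a difference of 0.97 ± 0.11 (adjusted p = 6.16e-05). IL1B was at 11.9, 11 and 12.3 CPM in untreated and 5.36, 7.18 and 5.86 in treated wild type libraries, against 15.1, 20.2 and 19.2 in untreated and 22.6, 22.4 and 21.3 in treated KO libraries. Neither pair of IL1B groups overlapped, and the difference was 1.22 ± 0.18 (adjusted p = 0.000301). The KO responses of both genes, 0.16 and 0.28, were not called (adjusted p = 0.264 and 0.185).

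**Figure D1:**
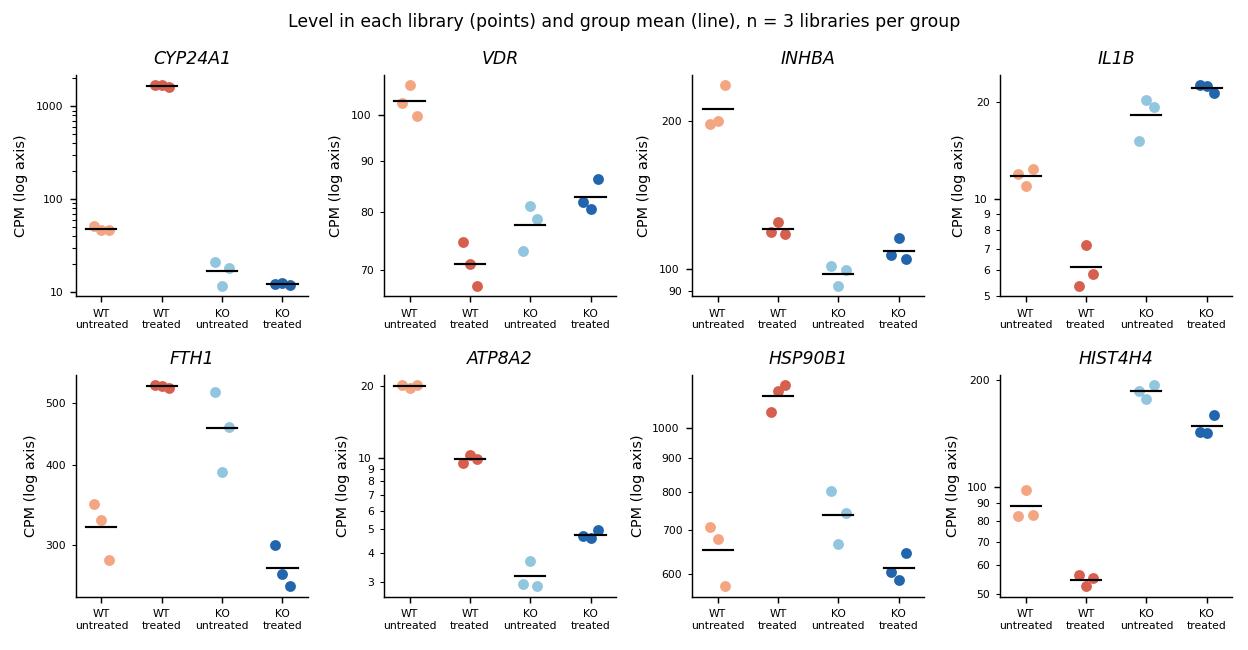
Level in CPM (log axis, each panel with its own range) of 8 genes in every library, with points for the 3 libraries of each group and a line at the group mean. CYP24A1 rises in treated wild type libraries alone, FTH1 and ATP8A2 move in opposite directions in the genotypes, and HIST4H4 is lower with treatment in both.

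Over all genes tested, 26.3% were called for the difference, 2025 (13.8%) with a positive and 1832 (12.5%) with a negative value. Differences of at least 1 on the log2 scale, a 2-fold gap between the responses, were few: 162 genes (1.1%) positive and 227 (1.55%) negative. The 2 responses themselves differed in how many genes passed. In wild type cells 11.5% of genes rose and 13% fell, and in KO cells 0.913% rose and 1.64% fell. These shares are those with all 12 libraries, and a response that was not called is not shown to be absent. Without untreated wild type replicate 3, more of the genes called for the difference had a called KO response, as given below. The same libraries enter the responses and the difference, so the classes below sort the called genes and are no further test.

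With all 12 libraries, most called genes had a called response in wild type cells alone. Here and below, a change in 1 genotype alone means that the response of the other genotype was not called. Of the 3857, 1203 (31.2%) rose and 1415 (36.7%) fell in wild type cells while the KO response was not called. Called KO responses with none called in wild type were rarer, 39 genes that rose and 80 that fell. A further 92 rose in wild type and fell in KO cells, and 88 did the reverse. HIST4H4, a histone H4 gene now named H4C16, was the 1 gene called in both in 1 direction, and 939 genes (24.3%) were called for the difference with neither response called. These numbers turned on untreated wild type replicate 3. Without it 871 and 773 of 3880 called genes rose or fell in wild type cells alone, which is no longer most of them. The classes that need a called KO response grew: without it 355 and 363 genes rose or fell in KO cells alone, and 390 and 435 were called in opposite directions. Over the other 11 libraries left out in turn these classes reached at most 45, 105, 133 and 150 genes, and they fell to 0, 3, 3 and 0 without untreated KO replicate 1 or treated KO replicate 2.

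**Figure D2:**
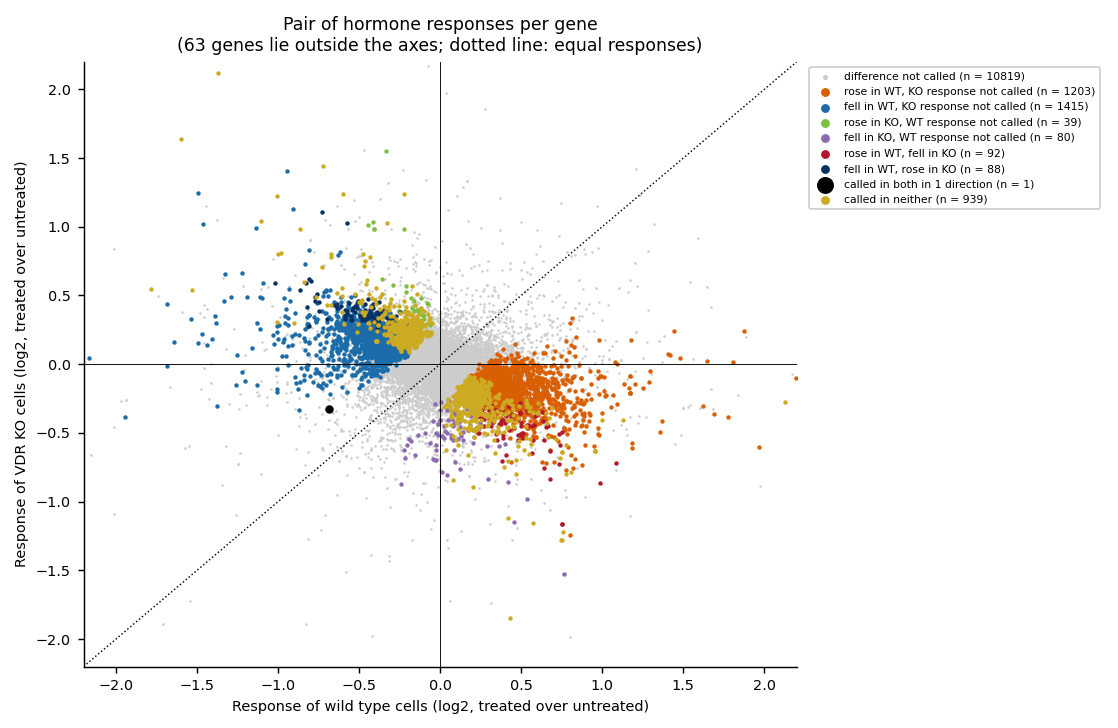
Response of wild type cells against response of VDR KO cells (log2, treated over untreated), 1 point per tested gene, coloured by class for genes called for the difference and grey for the rest. Most called genes (94.6%) lie in the upper left and lower right quadrants, and along the dotted line of equal responses the points are grey; 63 genes lie outside the axes.

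**Figure D3:**
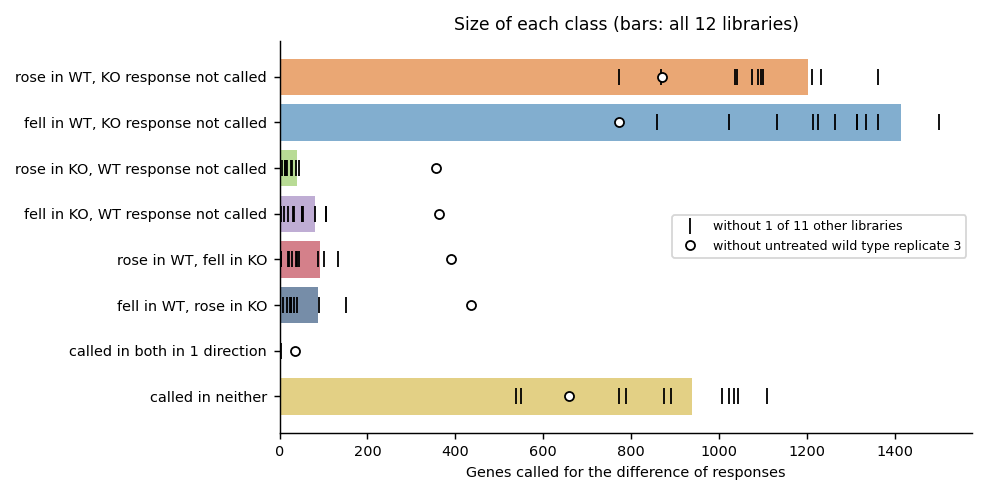
Number of called genes in each class with all 12 libraries (bars), without 1 of 11 libraries (ticks) and without untreated wild type replicate 3 (open circles). In the 4 classes of KO responses called alone or against the wild type response, the circles stand at 355 to 435 genes and the bars end at 39 to 92.

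The signs of the paired responses were opposite in 3649 of the 3857 called genes (94.6%), against 9526 of all 14676 tested (64.9%). A large difference favours opposite signs by construction, so the second share is the one to read: across all genes, which are not independent replicates, Pearson's r between the responses was -0.312 and Spearman's rho -0.374. No library enters both responses, but they share the scaling over all 12 libraries. Leaving out 1 library at a time gave r from -0.205 to -0.368 and rho from -0.237 to -0.409. Without untreated wild type replicate 3, r was -0.230 and rho -0.237. The wild type response was the larger in size in 78.7% of the called genes and in 63% of all. For 72.1% of called genes, against 62.5% of all, KO and wild type libraries were further apart with treatment than without, and for 30.7% against 15.8% the genotype with the higher level changed. The treated gap between genotypes minus the untreated gap is in essence the difference of responses, on which the genes were called. Selection thus shapes these shares of the called genes too, and they are no further test.

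Among genes that rose in wild type cells with no KO response called, the largest differences after CYP24A1 belonged to PRR5L, SEMA6D and CYP4F3. Ranked here and in the classes below were only genes with a mean of at least 5 CPM and with counts and a symbol of their own. PRR5L, a partner of the mTORC2 kinase complex, was at 4.14, 4.84 and 3.38 CPM in untreated and 12.9, 14.3 and 15.1 in treated wild type libraries, and at 1.28 to 2.34 CPM untreated and 1.05 to 1.56 treated in KO libraries (difference -2.16 ± 0.32, adjusted p = 0.000269). CYP4F3, a cytochrome P450 that inactivates leukotriene B4, was at 21.0, 25.0 and 21.6 CPM in untreated and 68.9, 70.0 and 68.8 in treated wild type libraries. In KO libraries CYP4F3 was at 65.5, 52.4 and 62.6 CPM untreated and 55.2, 48.9 and 42.1 treated (difference -1.93 ± 0.15, adjusted p = 2.35e-06), so the treated wild type libraries stood just above the untreated KO ones. SEMA6D, a transmembrane semaphorin, gave -2.06 ± 0.28. The smallest adjusted p-values of the class were those of CYP24A1, CYP4F3, KDM1A (a histone demethylase), CREG2 and COL16A1 (a collagen chain), the last 3 with differences of -1.2, -1.17 and -1.02. DSP, which encodes desmoplakin of the desmosome, was also in the class: its untreated wild type libraries were at 92.2, 92 and 58.2 CPM, its treated ones at 172, 128 and 179, and its KO libraries at 15.1 to 26.2 (difference -1.50 ± 0.26, adjusted p = 0.00204).

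Genes that fell in wild type cells with no KO response called included INHBA, IL1B and a chemokine. IL8, the neutrophil chemokine now named CXCL8, was at 14.3, 16.3 and 25.8 CPM in untreated and 4.81, 5.38 and 4.43 in treated wild type libraries, and at 48.3, 57.0 and 51.1 CPM in untreated and 43.2, 40.2 and 36.0 in treated KO libraries. In both genotypes the treated libraries were all below the untreated ones, with the wider gap in wild type cells, and the difference was 1.56 ± 0.25 (adjusted p = 0.000811). ANKRD1, a stress-responsive ankyrin repeat protein, was at 7.78 to 11.5 CPM in untreated and 2.55 to 3.47 in treated wild type libraries (difference 1.87 ± 0.29, adjusted p = 0.000526), and its KO groups overlapped. SNORD118, the U8 small nucleolar RNA of ribosomal RNA processing, gave 1.89 ± 0.32, and the lncRNA LINC00704 gave 1.48 ± 0.33. The smallest adjusted p-values of the class were those of DPYD (pyrimidine breakdown, 1.25 ± 0.13), HIST1H2AI (a histone H2A, 0.89), SNX29 (a sorting nexin, 0.88), CDH13 (the cell surface T-cadherin, 1.09) and RSU1 (a focal adhesion protein, 0.82). CDH13 was at 564, 545 and 642 CPM in untreated and 350, 358 and 322 in treated wild type libraries, while its KO libraries were at 348, 366 and 375 untreated and 413, 505 and 442 treated. With the trend with gene span and GC described below removed, 4 of these 5 had smaller differences: 0.69 for DPYD, 0.51 for SNX29, 0.50 for CDH13 and 0.50 for RSU1, all still called.

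The clearest case of responses in opposite directions downward in KO cells was FTH1, the heavy chain of the iron store ferritin. It was at 348, 328 and 284 CPM in untreated and 534, 533 and 528 in treated wild type libraries, and at 521, 390 and 458 CPM in untreated and 299, 269 and 258 in treated KO libraries. No groups compared overlapped, each response was 0.73 in size, and the difference was -1.46 ± 0.14 (adjusted p = 2.38e-05); FTH1 has many processed pseudogenes, among which its reads may be split. C6orf141, CREBZF (a transcription factor), GOLGA8A (a golgin) and TUBG2 (a gamma-tubulin) followed at -1.21, -0.98, -1.24 and -0.90, TUBG2 at -0.58 with the trend removed. CYMP, a chymosin pseudogene, and FAM43A had larger differences in the same class, -1.81 ± 0.23 and -1.51 ± 0.24.

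In the reverse class ATP8A2, a phospholipid flippase, had the largest difference of the genes ranked, 1.61 ± 0.17 (adjusted p = 5.62e-05). Its levels were 20.2, 19.7 and 20.1 CPM in untreated and 9.46, 10.2 and 9.91 in treated wild type libraries, and 2.96, 3.68 and 2.88 CPM in untreated and 4.67, 4.60 and 4.99 in treated KO libraries. The genotype gap thus shrank with treatment, without overlap in either genotype. MCPH1 (microcephalin, of chromosome condensation), ATG7 (an enzyme of autophagosome formation), COG5 (a Golgi tether) and IL1RAPL2 gave 1.2, 1.03, 1.26 and 1.09. With the trend removed these were smaller, at 0.86, 0.76, 0.89 and 0.53, as was ATP8A2 at 1.16, all still called. All 92 and all 88 genes of these opposite classes stayed called for the difference whichever single library was left out, against 2394 of the 3857 called genes (62.1%) and 196 of the 939 with neither response called (20.9%). Called responses of opposite sign favour a large difference by construction, so this is no further test. The classes themselves held 3 and 0 genes without untreated KO replicate 1.

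Of the genes with a called response in KO cells alone, 76.9% of the 39 annotated ones that rose and 91% of those that fell were protein coding. The same share was 90.3% among all called genes and 83.2% among all genes tested. RNU2-2, a U2 spliceosomal RNA, was at 992, 892 and 995 CPM in untreated and 712, 934 and 705 in treated wild type libraries, against 1063, 1128 and 1286 in untreated and 1617, 1814 and 1750 in treated KO libraries (difference 0.87 ± 0.15, adjusted p = 0.000691). It lies inside WDR74 (0.73 ± 0.13), so the reads of this pair cannot be told apart. KAL1, which encodes the matrix protein anosmin-1 and is now named ANOS1, gave 0.62 ± 0.11 at 11 to 12 CPM in untreated and 15 to 15.9 in treated KO libraries, but 0.30 (adjusted p = 0.0731) with a trend with gene span and GC removed, an alternative described below. Among those that fell in KO cells, HOTAIRM1, an lncRNA of the HOXA cluster, was at 118, 106 and 115 CPM untreated and 79.9, 69.6 and 78.5 treated, while wild type libraries went from 91.7, 97.9 and 89.2 to 107, 108 and 105 (difference -0.78 ± 0.10, adjusted p = 0.00013). SRSF5 (a splicing factor), NSMCE4A (of the SMC5/6 complex), DDX39B (mRNA export) and TOB1 (an antiproliferative protein) gave -0.69, -0.71, -0.68 and -0.63. SNORD32A, a small nucleolar RNA that guides ribosomal RNA methylation, rose in KO cells with a difference of 1.46 ± 0.33, and TP53INP1, a p53-induced stress gene, fell there with -1.52 ± 0.33.

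HIST4H4 fell less in KO than in wild type cells. It was at 82.7, 97.9 and 83.5 CPM in untreated and 56.5, 52.4 and 55.3 in treated wild type libraries, and at 186, 177 and 194 CPM in untreated and 143, 142 and 159 in treated KO libraries. The difference, 0.36 ± 0.11 (adjusted p = 0.0259), lost its call when any of 6 single libraries was left out. Outside the genes called for the difference, 27 were called in both genotypes in 1 direction, 3 that rose and 24 that fell. Among the latter were CXCL1 (a chemokine), ADM (adrenomedullin), CDKN1A (a cyclin-dependent kinase inhibitor) and MT2A (a metallothionein). CXCL1 had responses of -0.63 in wild type and -0.60 in KO cells and a difference of 0.03 ± 0.14 (adjusted p = 0.894), and ADM had -0.57 and -0.81 and a difference of -0.24 ± 0.14 (adjusted p = 0.238).

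Several of the most extreme differences rested on 1 to 3 libraries. RNU1-7, a U1 RNA copy, was at 1.29, 1922 and 1406 CPM in untreated wild type libraries and at 2408, 1.48 and 0.554 CPM in treated KO libraries, with all other libraries between 0.601 and 1.03. GTF2IRD2, HIST2H4A and MEMO1 also had single libraries far from the rest of their group, and each of these 4 lost its call without some single library. ZC3H11A and ZBED6 (-2.03 ± 0.57 and -2.02 ± 0.57) overlap in the genome with nearly the same counts and lost the call in 8 of the 12 fits with a library left out.

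Gene span, the distance from start to end of a gene with its introns, differed between the classes. Its median was 158 kb for genes that fell in wild type and rose in KO cells, 71.5 kb for those that fell in wild type cells alone, 14.6 kb for those that rose in wild type cells alone and 10.7 kb for those that rose in wild type and fell in KO cells, against 28.3 kb for all genes tested. GC content of the longest transcript ran the other way, 42.8%, 44.1%, 55.5% and 54.6% in the same order, against 48.3%. The pattern held in the genes as a whole and not in the called ones alone. In the quintile of genes with the shortest span the median response was 0.08 in wild type and -0.11 in KO cells, and in the longest quintile it was -0.12 and 0.13. The median difference went from -0.21 to 0.24 over these quintiles, and of the longest quintile 31.6% were called with a positive and 3.29% with a negative difference.

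**Figure D4:**
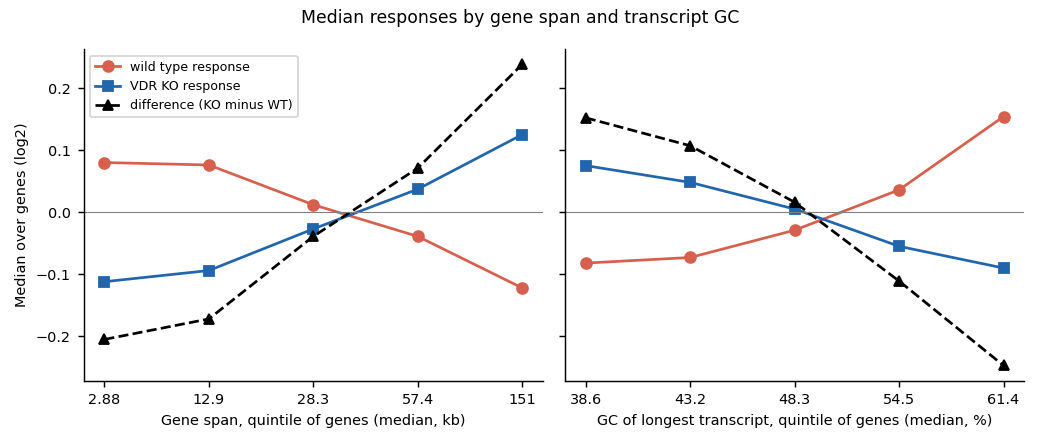
Median response of wild type cells (circles), of VDR KO cells (squares) and median difference (triangles), in log2, over quintiles of the tested genes by span and by GC of the longest transcript. The wild type and KO lines cross in both panels: the longest quintile is at -0.12 and 0.13, and the quintile with the highest GC at 0.15 and -0.09.

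The libraries themselves carried the pattern. Each gene's log2 CPM in a library was taken against its mean over the 12 libraries, and the median of the longest quintile minus that of the shortest was -0.25 to -0.28 in treated wild type, 0.04 to 0.05 in untreated KO and 0.24 to 0.34 in treated KO libraries. In untreated wild type libraries it was -0.19, -0.19 and 0.15, the last in replicate 3. Without that library the medians of the shortest quintile were 0.04 and -0.12 and those of the longest -0.06 and 0.12, the wild type values being closer to 0. By GC, wild type medians without it were -0.01 in the lowest and 0.09 in the highest quintile, against -0.08 and 0.15 with it. With a smooth trend with span and GC removed from every library, an alternative added after the pattern had been seen, 3280 genes were called, 2458 of the 3857 kept their call and 44 turned sign, and r between the responses was -0.269. What the pattern comes from was not tested. Small RNA genes had the highest median difference among gene types, 0.29 over 287 genes. Of them 44 (15.3%) were called higher and 13 (4.53%) lower, beside 13.8% and 12.5% over all genes, so the share called higher was near that of all genes. The shares were 14.8% and 13.9% of 11754 protein-coding genes, 7.04% and 7.85% of 1491 lncRNA genes and 17% and 7.58% of 541 genes without a GENCODE v29 entry.

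The hormone's own pathway was split. Of 14 tested genes of vitamin D metabolism and of the receptor, 4 had a called positive and 4 a called negative difference (13.8% and 12.5% over all genes), with a list median of 0.12 against -0.01 for all genes; the list median was -0.14 with the span and GC trend removed. The receptor VDR, its partner RXRA (0.56 ± 0.15) and the coactivators MED1 (0.99 ± 0.19) and SNW1 (0.51 ± 0.11) fell in wild type cells alone. HR, a corepressor that binds VDR, rose there, from 77.3, 77.4 and 62.1 to 124, 112 and 121 CPM, and its KO libraries went from 57.8, 60.0 and 58.8 to 54.5, 46.7 and 42.1 CPM (difference -1.02 ± 0.14, adjusted p = 0.000148). PDIA3, a disulfide isomerase that has also been described as a membrane binding protein of the hormone, gave -0.95 ± 0.16.

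The list of classic targets of the hormone, known from other cells and chosen with earlier results of these libraries known, had 27 tested genes. Of these, 13 (48.1%) had a negative and 1 (3.7%) a positive called difference, beside 12.5% and 13.8% over all genes. The list median was -0.48, against -0.01 for all genes. DUSP10, a phosphatase that switches off stress kinases, was at 36.6, 36.0 and 42.2 CPM in untreated and 86.2, 92.4 and 81.6 in treated wild type libraries, and at 268, 255 and 293 CPM in untreated and 302, 326 and 294 in treated KO libraries. Every KO library was above every wild type library, and the difference was -1.0 ± 0.12 (adjusted p = 6.09e-05). SERPINB1 (a neutrophil protease inhibitor), THBD (thrombomodulin), IGFBP3 (an IGF binding protein), KLK5 (an epidermal protease) and CLMN gave -1.35, -1.21, -1.14, -0.94 and -0.80. CLMN, calmin, is the flattest in KO cells of these, at 30.2 to 32.4 CPM untreated and 30.3 to 31.9 treated, against 30.6 to 32.8 and 54.5 to 55.6 in wild type libraries. SP100, a nuclear body protein, was the 1 with a positive difference, 0.49 ± 0.11, and 13 of the 27 were not called. With the trend removed the list had 0 positive and 12 negative calls, so the call of SP100 was lost.

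**Figure D5:**
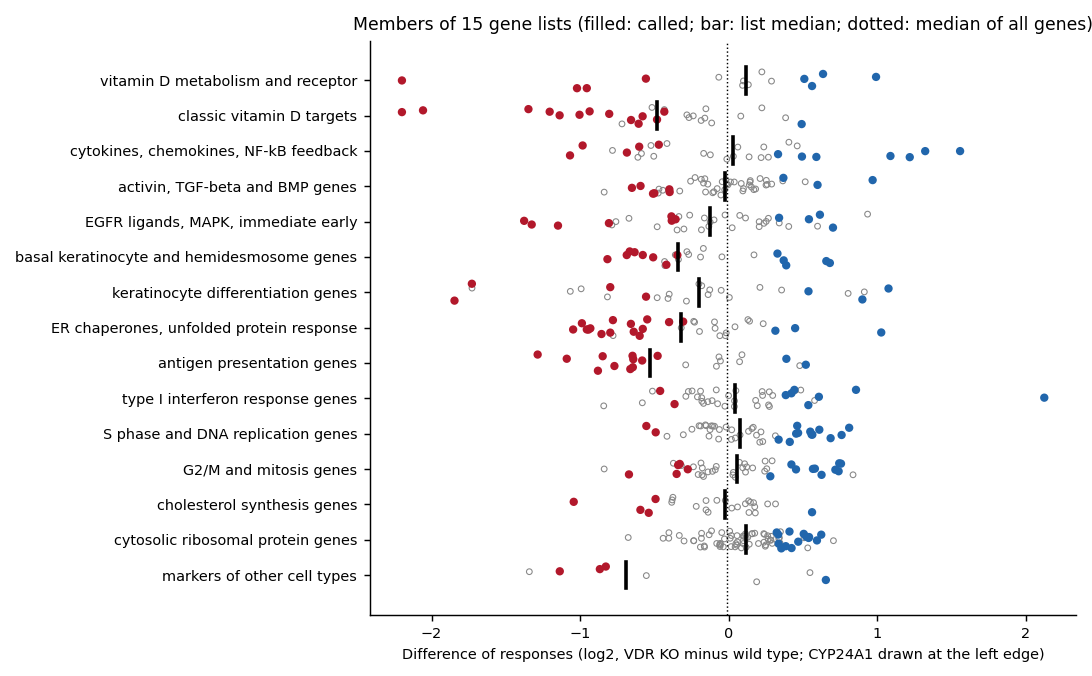
Difference of responses (log2, VDR KO minus wild type) of each tested member of 15 gene lists, filled where called, with a bar at the list median and a dotted line at the median of all genes. CYP24A1, in 2 lists, is drawn at the left edge; the medians farthest left among the lists of 20 or more genes are those of antigen presentation (-0.53) and classic targets (-0.48).

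Of 29 cytokines, chemokines and NF-kB feedback genes, 7 (24.1%) were called with a positive and 5 (17.2%) with a negative difference. The list median was 0.03, and the shares over all genes were 13.8% and 12.5%. With the trend removed 8 were positive and 3 negative. The positive ones were the ligands IL1A (1.32 ± 0.27), IL1B, IL8, IL18 (0.59 ± 0.10) and CSF2 (1.09 ± 0.36), with the apoptosis inhibitor BIRC3 (0.49 ± 0.11) and the NF-kB subunit NFKB1 (0.33). The fall of these ligands was called in wild type cells alone, though all treated KO libraries were also below the untreated ones for IL8. The negative ones were the cytokine TNF (-0.98 ± 0.34), PTGS2, the inducible cyclooxygenase (-1.07 ± 0.23), TNFAIP2 (-0.69 ± 0.11) and the NF-kB inhibitors TNFAIP3 (-0.60 ± 0.10) and NFKBIA (-0.47 ± 0.10). TNFAIP3 was at 200, 201 and 179 CPM in untreated and 219, 234 and 251 in treated wild type libraries, and at 181, 173 and 180 CPM in untreated and 142, 136 and 148 in treated KO libraries, so its groups went apart in opposite directions. TNFAIP2 was at -0.40 with the trend removed.

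Of 48 genes of activin, TGF-beta and BMP signalling, 3 had a positive and 6 a negative called difference, or 6.25% and 12.5%, beside 13.8% and 12.5% over all genes. Besides the ligand subunit INHBA, the decoy receptor BAMBI (0.60 ± 0.16) was positive, and the ligand TGFB2 (-0.50 ± 0.13) was negative. TGFB2 was at 35.2, 30.9 and 38.8 CPM in untreated and 57.6, 66.4 and 58.4 in treated wild type libraries, and in KO libraries at 102, 103 and 113 untreated and 117, 141 and 134 treated, higher with treatment in both. The BMP target ID1 fell in KO cells alone, from 361, 314 and 314 to 239, 197 and 207 CPM, while its wild type groups overlapped (-0.59 ± 0.12, adjusted p = 0.00181; -0.37 with the trend removed). The number of negative calls was 2 without untreated KO replicate 1 or treated KO replicate 3, and 3 by DESeq2.

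Among 37 EGFR ligands, MAPK feedback and immediate early genes, 4 (10.8%) were positive and 7 (18.9%) negative, beside 13.8% and 12.5% over all genes. Positive calls numbered 2 without any 1 of treated wild type replicates 1 or 3 or untreated or treated KO replicates 1 or 3, and negative ones 4 without treated KO replicate 2. The AP-1 subunits FOSL2 (-1.38 ± 0.17) and JUNB (-1.33 ± 0.15) had the largest differences. JUNB was at 439, 409 and 313 CPM in untreated and 617, 652 and 666 in treated wild type libraries, and at 372, 352 and 320 CPM in untreated and 259, 214 and 222 in treated KO libraries. No groups compared overlapped, and JUNB was called in both directions, as was IER5 (-0.81 ± 0.15). NRG1, a ligand of ERBB receptors that spans 1129 kb, had 0.70 ± 0.13, but 0.13 (adjusted p = 0.342) with the span and GC trend removed.

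Keratinocyte genes did not move as 1 block. Of 23 basal and hemidesmosome genes (median -0.34), 5 (21.7%) were positive and 8 (34.8%) negative, beside 13.8% and 12.5% over all genes. Positive calls numbered 3 without any 1 of untreated or treated wild type replicate 1, untreated KO replicate 3 or treated KO replicate 2, and 2 with the trend removed. The basal transcription factor TP63 (0.68 ± 0.15) and the hemidesmosome collagen COL17A1 (0.66 ± 0.12) fell in wild type cells alone, and the adhesion receptors BCAM and ITGAV rose there (-0.67 ± 0.13 and -0.69 ± 0.14). KRT14, the basal keratin, fell in KO cells, from 107, 104 and 111 to 57.2, 61.1 and 57.3 CPM, while its wild type groups overlapped at 367, 365 and 271 against 295, 254 and 300 CPM (difference -0.63 ± 0.14, adjusted p = 0.00416). KRT15, another basal keratin, also fell in KO cells, with -0.51 ± 0.16. With the trend removed KRT14 and BCAM were at -0.31 and -0.35, still called. Of 25 differentiation genes 3 (12%) were positive and 4 (16%) negative, near the shares over all genes. The transcription factors PRDM1 and EHF fell in wild type cells alone, with 1.08 ± 0.24 and 0.54 ± 0.12. KLK8 (-0.56 ± 0.13) lost its call with the trend removed, and the list then had 1 negative call.

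Of 33 endoplasmic reticulum chaperones and genes of the unfolded protein response, 15 (45.5%) were negative and 3 (9.09%) positive. The shares over all genes were 12.5% and 13.8%, and the list median was -0.32. HSP90B1, the chaperone GRP94, was at 708, 678 and 574 CPM in untreated and 1059, 1141 and 1164 in treated wild type libraries, and at 801, 667 and 742 CPM in untreated and 603, 587 and 646 in treated KO libraries. Its treated wild type libraries were all higher and its treated KO libraries all lower than untreated ones, with a difference of -1.05 ± 0.13 (adjusted p = 7.18e-05). CALR, HSPA5 and P4HB, chaperones and a folding enzyme of the same compartment, gave -0.99, -0.94 and -0.93, and PDIA4 and DNAJB11 gave -0.86 and -0.64. All of these rose in wild type cells with the KO response not called. SLC7A11, the cystine transporter, was positive (1.03 ± 0.20). Leaving out single libraries gave 12 to 16 negative calls, and there were 13 negative and 5 positive with the trend removed.

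Of 20 antigen presentation genes (median -0.53), 11 (55%) were negative and 2 (10%) positive, beside 12.5% and 13.8% over all genes. The peptide transporter subunits TAP1 and TAP2 (-0.85 ± 0.18 and -0.66 ± 0.11) and their partner TAPBP (-0.77 ± 0.12) rose in wild type cells, with TAP2 at 52.9, 51.9 and 49.4 CPM untreated and 77.0, 68.7 and 78.9 treated. The class I heavy chains HLA-C and HLA-B gave -1.29 ± 0.24 and -1.09 ± 0.26, and as such genes have like sequences their reads may be shared between them. HLA-C was at 132, 125 and 73.3 CPM in untreated wild type libraries, the last in replicate 3, at 194, 206 and 207 in treated ones, and at 86.6 to 95.8 CPM untreated and 66.2 to 72.1 treated in KO libraries. The transactivators CIITA (0.52 ± 0.14) and NLRC5 (0.39 ± 0.10) were the positive ones. The number of negative calls was 9 to 11 with a library left out and 8 with the trend removed.

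Of 41 type I interferon response genes (median 0.04), 7 (17.1%) were positive and 2 (4.88%) negative, beside 13.8% and 12.5% over all genes. Positive calls numbered 4 without untreated KO replicate 1 or treated KO replicate 2. Negative ones numbered 1 with the trend removed, and also without any 1 of treated wild type replicates 1 or 3, untreated KO replicates 1 or 3 or the 3 treated KO replicates. EIF2AK2, the double-stranded RNA kinase PKR, was at 220, 208 and 250 CPM in untreated and 178, 153 and 162 in treated wild type libraries, and at 131, 143 and 153 CPM in untreated and 182, 193 and 186 in treated KO libraries, and was called in both directions (0.86 ± 0.12, adjusted p = 0.000181). IFIT3 and the RNA sensor DDX58 fell in wild type cells alone (0.42 ± 0.11 and 0.61 ± 0.16). IRF7, a transcription factor of the pathway, was negative (-0.46 ± 0.11), but had -0.05 (adjusted p = 0.842) with the trend removed.

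Of 41 S phase genes 12 (29.3%, beside 13.8% of all genes) were positive and 2 (4.88%, beside 12.5%) negative, with a median of 0.08; 4 were negative without untreated wild type replicate 2. The polymerase subunits POLA1 (0.69 ± 0.11), POLA2 (0.76 ± 0.18) and POLE2 (0.81 ± 0.16) and the clamp loader RFC3 (0.61 ± 0.12) fell in wild type cells alone, POLA1 from 385, 326 and 406 to 284, 274 and 278 CPM. The helicase subunit MCM7 had the reverse pattern and was called in both genotypes, rising from 201, 200 and 177 to 228, 236 and 239 CPM in wild type and falling from 166, 161 and 168 to 136, 131 and 143 CPM in KO libraries (-0.55 ± 0.10, adjusted p = 0.00085). With the trend removed POLA1 and RFC3 were both at 0.32 and MCM7 at -0.29, still called. Of 42 mitosis genes 10 (23.8%, beside 13.8% of all genes) were positive and 5 (11.9%, beside 12.5%) negative, and 3 negative with the trend removed. KIF4A, KIF20B (mitotic kinesins) and CCNB2 (cyclin B2) gave 0.63, 0.74 and 0.74, and the mitotic kinase PLK1 gave -0.67 ± 0.11; KIF4A was at 0.41 and PLK1 at -0.44 with the trend removed. The number of negative mitosis calls fell to 1 without any 1 of treated wild type replicates 1 or 3, untreated KO replicate 2 or treated KO replicate 2.

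Of 79 cytosolic ribosomal protein genes (median 0.12), 14 (17.7%) were positive and 0 negative, beside 13.8% and 12.5% over all genes. RPL4 fell in wild type and rose in KO cells, at 103, 112 and 128 CPM in untreated and 97.5, 94.7 and 97.8 in treated wild type libraries and 108, 123 and 120 in untreated and 144, 153 and 160 in treated KO libraries (0.62 ± 0.12, adjusted p = 0.00125). RPS12, RPL36A and RPL34 fell in wild type cells alone, with differences of 0.52, 0.59 and 0.54. The number of positive calls was 23 without untreated wild type replicate 3, 9 without any 1 of treated wild type replicates 2 or 3, untreated KO replicate 1 or treated KO replicate 2, and 31 with the trend removed. Negative calls numbered 4 without untreated wild type replicate 1 and 1 with scaling by library size alone. These genes have many processed pseudogenes, and the labels do not say how reads that match several places were counted. Of 25 cholesterol synthesis genes 1 (4%, beside 13.8% of all genes) was positive and 4 (16%, beside 12.5%) were negative. The sterol isomerase EBP led the latter (-1.04 ± 0.17). Negative calls numbered 2 without treated wild type replicate 3 or treated KO replicate 1, positive ones 2 without untreated wild type replicate 2, and with the trend removed 3 were positive and 2 negative.

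Among 8 tested markers of other cell types CDH5, MUC1 and CD68 were negative (37.5%) and MITF positive (12.5%). The shares over all genes were 12.5% and 13.8%. Levels were low: CDH5 was at 2.62 to 8.19 CPM and MITF at 6.01 to 20.4 CPM over the libraries. MUC1, CD68 and MITF lost their calls with the trend removed. Without treated KO replicate 3 only 1 was negative, and without treated wild type replicate 3 the call of MITF was lost.

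Promoters were searched for the pair of half-sites that VDR and RXR bind, the binding motif that defines the receptor's classic response element. RefSeq windows on GRCh38, from 250 bases before to 50 after the start of a gene, were read on both strands for 2 half-sites in 1 orientation with 3 bases between, each half-site being AGGTCA or AGTTCA, the same starting with G (GGGTCA or else GGTTCA), or the form AGGTGA and its counterpart GGGTGA. Among genes with a window, a match stood in 3 of 897 that rose in wild type cells alone (0.334%). Of 1054 that fell there alone, 5 had a match (0.474%). It was 9 of 2886 for all called genes (0.312%) and 23 of 10431 for tested genes (0.22%). Counted by window and not by gene, 62 of all 35116 held a match (0.177%). The matches of 5 of these genes are shown, chosen after their values were seen, to set the sequences of rising and falling genes side by side. Capitals mark the half-sites and lower case the 3 bases between, each written 5′ to 3′ on the strand that reads as the motif.
CEACAM6: GGGTCAcgtGGGTCA
CD68: GGGTGAggcGGTTCA
EPHA1: AGGTGAaccAGGTGA
OSBPL9: GGGTGAaggGGGTGA
SP100: GGGTGAaagGGTTCA

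The CEACAM6 match lies at chr19:41755480-41755494 on the minus strand, the CD68 match at chr17:7579660-7579674 on the plus strand and the EPHA1 match at chr7:143408930-143408944 on the minus strand. Those of OSBPL9 and SP100 lie at chr1:51729811-51729825 (plus) and chr2:230416646-230416660 (minus). CEACAM6, a cell adhesion protein, and EPHA1, an ephrin receptor, rose in wild type cells with differences of -1.64 ± 0.58 and -0.37 ± 0.13 (adjusted p = 0.0461 and 0.042). OSBPL9, an oxysterol-binding protein, fell with 1.11 ± 0.18. A match is a description of the letters in the window and not a binding site, and windows of CYP24A1 and VDR were not analysed here.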

How the data were processed

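The authors deposited raw read counts per gene for 12 HaCaT libraries, with human Ensembl IDs and symbols. The submitters' processing notes name the aligner BWA 0.5.9 and the build mm9, a mouse build. For the build used, the counting tool and its strand setting: not given in the sources used here. A deposited CPM table and enrichment tables were not used. Gene span, GC and positions come from GENCODE v29 (GRCh38), which held 14135 of the 14676 genes tested. The counts of 808 tested genes equal another gene's.

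The test was that of edgeR 4.0.16 (R 4.3.3): TMM scaling (factors 0.95 to 1.057), filterByExpr, robust quasi-likelihood F test on 4 group means (common dispersion 0.0117), Benjamini-Hochberg over all genes tested. Total counts per library were 11.49 to 12.21 M in untreated and 13.13 to 13.89 M in treated wild type, and 12.61 to 15.99 M in untreated and 11.83 to 12.77 M in treated KO cells. SE is the size of the log2 difference divided by the square root of F. CPM of single genes are TMM-scaled. The procedure was tested on simulated data. Replicates are wells, as far as the labels say, so p-values measure the spread between such samples, which may be technical.

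The genes described and the lists were chosen with earlier results of these data known. Named by rule, from genes with a mean of at least 5 CPM, were the 10 largest differences each way, 5 per class and 4 per list by adjusted p, beside CYP24A1, INHBA, IL1B and VDR; some that meet it are not reported here. Other list members, genes with a promoter match and genes called in both genotypes were chosen after their values were seen. Alternatives were other scalings, filters and thresholds, DESeq2 1.42.0, limma 3.58.1 on log2 CPM, a replicate block, each library left out and a trend with span and GC removed.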

Additional observations from a re-analysis of the deposited data

Results flagged for a closer look

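Results in which the response to the same treatment differed between the genotypes, by the test of the difference itself (edgeR), are the 3857 genes called for the difference of responses and, within them, the 180 genes called in the genotypes in opposite directions. CYP24A1, with a difference of -5.60 on the log2 scale, was higher with treatment in wild type cells alone. INHBA (0.97), IL1B (1.22) and VDR (0.64) were lower with treatment in wild type cells and had no called response in KO cells.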

How the results depend on the processing

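With n = 3 libraries per group the total depends on the threshold more than on the tool. Scaling by library size alone or by DESeq2's factors, no filter, a stricter filter, DESeq2, limma and the span and GC trend removed left the total and each direction within 1.5 times; these and all single libraries left out turned the sign of no named gene. An adjusted p below 0.01 left 1921 genes (1047 higher and 874 lower in KO), and at least 1 on the log2 scale left 389 (162 and 227).

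In the order rose in wild type alone, fell there alone, rose in KO alone, fell in KO alone, rose in wild type and fell in KO, fell in wild type and rose in KO, both in 1 direction, neither, the classes held 586, 741, 0, 14, 9, 0, 0 and 571 genes at p below 0.01 and 160, 98, 6, 5, 26, 22, 0 and 72 at 1 or more. For the third to seventh class DESeq2 gave 113, 141, 190, 260 and 3. Library size alone gave 132 for the fourth and 156 for the fifth, and removal of the trend gave 19, 52, 59 and 40 for the third to sixth. By sign alone 1739 genes were up in wild type and down in KO cells, 1910 the reverse and 208 of 1 sign.

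Single libraries left out gave totals of 2797 to 4322, 1427 to 2231 higher and 1319 to 2091 lower in KO. The classes ran from 773 to 1362, 773 to 1502, 0 to 355, 3 to 363, 3 to 390, 0 to 435, 0 to 34 and 537 to 1109. The third to seventh were largest without untreated wild type replicate 3; the cause was not tested. Of the named genes, 12 lost the call without some library.

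The labels give no pairing of the samples other than the replicate number. Deviations of same-numbered libraries correlated at -0.175 to 0.121, which does not settle whether they were paired. With the replicate block 3555 genes were called (1856 higher and 1699 lower), and the third to seventh class held 16, 48, 34, 20 and 0.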
